A study of Homo sapiens with 12 samples.

Results

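Replication-dependent core histone genes and the somatic and testis linker histone genes were examined in K-562, a human erythroleukemia cell line, after knockdown of the transcription factor MYB and its re-expression. They were chosen by name, as protein-coding genes with the symbols of the clustered histone families H1, H2A, H2B, H3 and H4 and an FPKM (mapped fragments scaled by transcript length and by library size) above 0 in at least 3 of the 12 libraries. Of the 60658 genes in the deposited table, 61 carried such a symbol, 11 of them were at 0 in every library, 8 were above 0 in 1 or 2 libraries, and 42 were kept. The 42 comprise 5 H1, 11 H2A, 13 H2B, 5 H3 and 8 H4 genes. The level filter for testing (FPKM of at least 1 in at least 3 libraries) left 30 of them, comprising 2 H1, 9 H2A, 10 H2B, 2 H3 and 7 H4 genes, among 13393 genes tested in all. Another 8 histone genes with RefSeq symbols were not analysed here.

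Each of the 4 groups held 3 libraries from separate experiments, with RNA taken 24 hours after transfection. The control group (labelled siRNA_Control) was a K-562 line with a stable 3xTY1 construct that received a siGENOME siRNA without a target. The knockdown group (MYB_KnockDown) was the same 3xTY1 line given the MYB siRNA si2992. The wild-type rescue (MYB-WT_Rescue) was a line expressing 3xTY-hcM, and the D152V rescue (D152V_Rescue) a line expressing the mutant form 3xTY-D152V, and both received si2992. All lines had been selected with G418 and grown in IMDM with serum. Each rescue is 1 stable line, so the form of MYB and the line that carries it cannot be told apart. The labels do not say how the siRNA spares the introduced MYB, or whether a line is 1 clone.

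Core histones form the octamer around which nuclear DNA is wrapped, with H2A, H2B, H3 and H4 as its parts, and linker histone H1 binds where the DNA enters and leaves. Most core histone genes exist in many clustered copies that are transcribed in S phase under the coactivator NPAT, and their mRNAs end in a conserved stem-loop, bound by SLBP, in place of a poly(A) tail. The libraries were made with poly(A) selection. The histone mRNA measured here is therefore the polyadenylated part, plus what passed the selection without a tail, and these shares are unknown. Bulk RNA also cannot tell apart fewer cells in S phase and less histone mRNA per cell.

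The stem-loop is shown because an mRNA that ends at it lacks a poly(A) tail, and these libraries were poly(A)-selected. It was searched on the sense strand of the GENCODE transcripts as the capital letters printed for H1-2, with any base allowed at the single position where H2BC12 differs from H1-2. Of the 42 genes, 31 held that form, which was present in 0.262% of 19833 protein-coding genes. The 8 H4 genes each held the form shown for H4C8, with the same open position, a form written down after the sequences were seen and present in 0.071% of protein-coding genes, and the other 3 (H2AC11, H2AC15 and H3C6) differed from both forms. Capitals mark the 16 bases of the stem-loop and lower case the bases beside it, 5′ to 3′:
H1-2: caaaaGGCTCTTTTCAGAGCCacca
H2AC6: ccaaaGGCTCTTTTCAGAGCCcccc
H2BC12: ccaaaGGCTCTTTTAAGAGCCactt
H2BC21: ccaaaGGCTCTTTTCAGAGCCaccc
H3C10: ccaaaGGCTCTTTTCAGAGCCaccc
H4C8: ccaaaGGCCCTTTTCAGGGCCgccc
H4C5: tcaaaGGCCCTTTTCAGGGCCgccc

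Many histone genes also have an annotated transcript that does not end at the stem-loop, and such a transcript can be polyadenylated. In 17 of the 42 genes, GENCODE lists a transcript that does not end within 20 bases of a stem-loop (16 genes) or RefSeq gives a gene longer than the short transcript (6 genes, 1 of them, H2BC12, by this criterion alone). H2BC21 is the clearest case, as its single GENCODE transcript of 2224 bases continues for 1729 bases past the stem-loop. The median over genes of the mean FPKM was 13.5 for the 17 genes with a long form (range 0.0314 to 530, 13 of them tested) and 1.35 for the 25 without one (range 0.146 to 222, 17 tested). The RefSeq part of this criterion was added after the values were seen, and the 2 classes were not tested against each other.

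**Figure D1:**
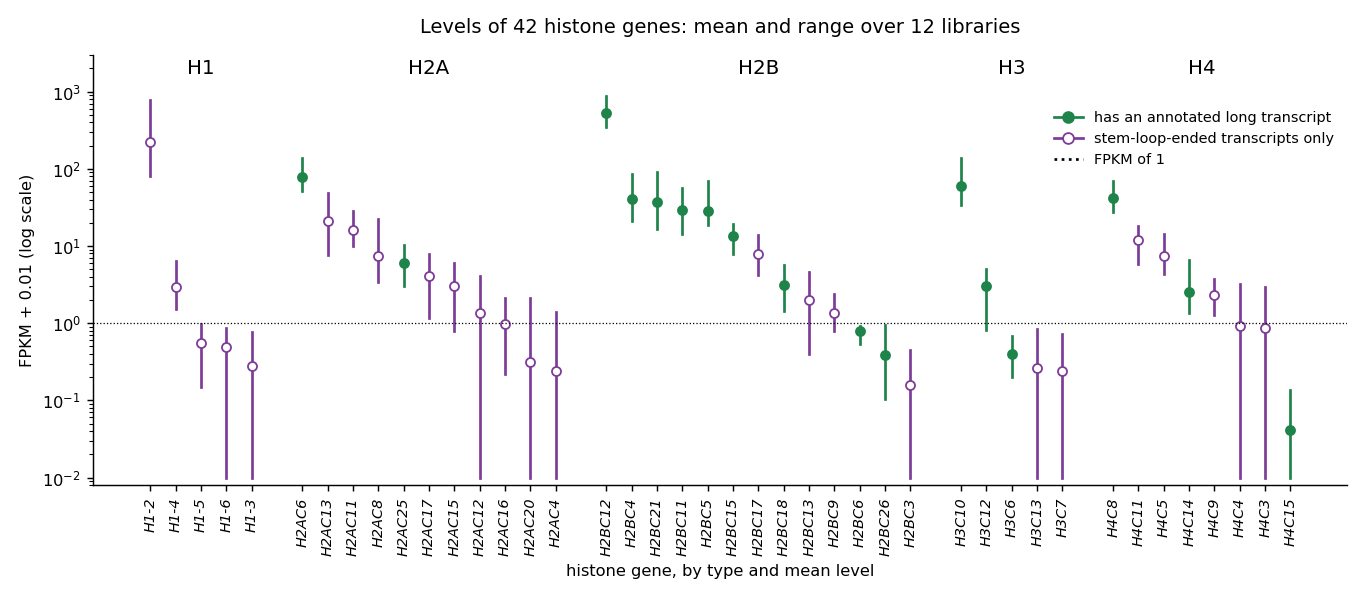
Mean FPKM (points) and range over 12 libraries (lines) of 42 histone genes on a log scale after adding 0.01, ordered by type and mean, with filled green points for genes that have an annotated long transcript and open purple points for the others. H2BC12 and H1-2 stand highest, and 12 genes did not reach an FPKM of 1 in 3 libraries.

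Levels differed widely within each type. H2BC12, an H2B gene at chr6:27138293-27146858 (GRCh38), had a mean of 530 FPKM over the 12 libraries and held 44.4% of the FPKM summed over the 42 genes. H1-2, which encodes a linker histone and lies at chr6:26055740-26056470, had a mean of 222 FPKM and held 18.6%. The 10 highest genes together held 91.4%, with H2AC6 (79.3 FPKM), H3C10 (60.0), H4C8 (41.8) and H2BC4 (40.7) next in the order of means over all libraries. That order differed between groups: in the D152V rescue H2BC21 (66.7 FPKM) and H2BC4 (56.4) were above H4C8 (48.8). The 12 untested genes were all under 1 FPKM on average. FPKM is scaled by transcript length, but the polyadenylated share of each mRNA is unknown, so these are levels within poly(A)-selected libraries only. Near-identical histone copies can also exchange reads, and single low values are uncertain for that reason.

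MYB mRNA was low in the knockdown libraries and higher in the other groups. It was at 120.1 FPKM ± 14.2 (SD, n = 3) in control, 30.2 ± 3.59 in knockdown, 124 ± 8.87 in the wild-type rescue and 91.1 ± 8.11 in the D152V rescue, and its knockdown difference was -1.96 on the log2 scale (limma adjusted p = 3.03e-05). It was also lower in the D152V rescue than in the wild-type rescue, by a log2 difference of -0.44 (limma adjusted p = 0.0494). Gene FPKM does not show which form of MYB a rescue library carries. All 10 erythroid markers were above 1 FPKM in every library, 5 of 5 monocyte and granulocyte markers were at or below 1 throughout, as were 3 of 5 lymphoid, 2 of 3 epithelial and 1 of 3 fibroblast markers. CD3D (up to 110 FPKM) and EPCAM (up to 126) were the highest of those above 1. Knockdown replicate 1 stood apart. Its Pearson correlation with the other knockdown libraries, across tested genes, was 0.929 and 0.93, against at least 0.983 for every other pair of replicates, and its FPKM values summed to 1215580 against 672616 to 798362 elsewhere. In that library, 4925 other tested genes within the histone genes' span of transcript length (389 to 2224 bases) were high. Their median was +0.55 relative to the control mean on the log2(FPKM + 1) scale, and that of 78 ribosomal protein genes was 1.66. In the other knockdown libraries the 4925 genes were at 0.05 and 0.07. Knockdown results that change much without that library are given with and without it below.

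Summed over the 42 genes, histone mRNA was at a similar level in control and the wild-type rescue and higher in the other groups. The control libraries had 766, 747 and 943 FPKM, the knockdown libraries 2146, 1163 and 1631, the wild-type rescue libraries 726, 791 and 933, and the D152V rescue libraries 1225, 1329.7 and 1919.5. Every knockdown and D152V library was thus above every control and wild-type rescue library. The mean ratio was 2.01 for knockdown over control (1.71 without knockdown replicate 1), 0.997 for the wild-type rescue over control and 1.82 for the D152V rescue over control. As a share of all FPKM, the genes held 0.0935% to 0.138% in control, 0.158% to 0.224% in knockdown, 0.0990% to 0.129% in the wild-type rescue and 0.173% to 0.263% in the D152V rescue. These sums carry no test, since the genes were chosen together.

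**Figure D2:**
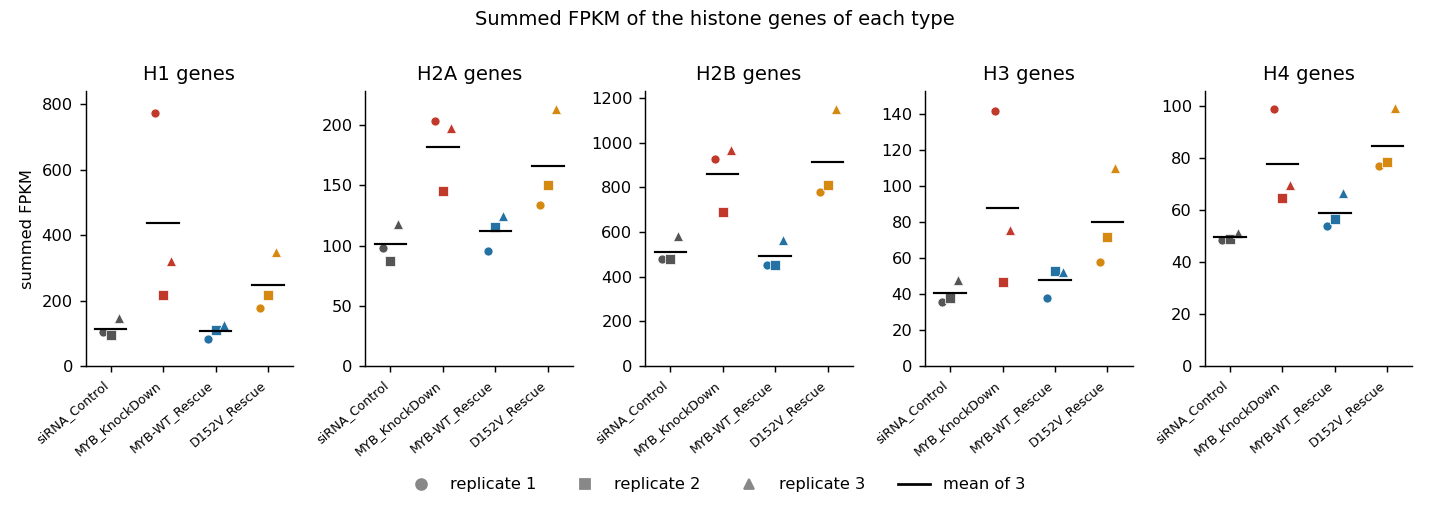
Summed FPKM of the H1, H2A, H2B, H3 and H4 genes in each library (points, with a marker shape for each replicate number) and the mean of 3 libraries (horizontal lines) in the 4 groups, on linear axes from 0. In each type the means of the knockdown and the D152V rescue lie above those of control and the wild-type rescue, and knockdown replicate 1 is the highest knockdown library for H1, H2A, H3 and H4.

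Knockdown against control and the wild-type rescue against knockdown were tested gene by gene. Both comparisons use the same knockdown libraries, so their results are not independent. A gene is called when its limma difference in log2(FPKM + 1) has a Benjamini-Hochberg adjusted p under 0.05 over the 13393 tested genes, and differences on this scale understate those of low genes. In knockdown against control, 7 of the 30 tested histone genes rose and 0 fell, against 3.94% of all tested genes called higher and 7.38% called lower. The 7 were H1-2, H2AC6, H2AC25, H2BC12, H2BC18, H3C12 and H4C8. The median difference of the 30 genes was 0.71 (0.60 without knockdown replicate 1, 0.48 with the trend on transcript length removed), against -0.03 for all tested genes, and 28 of the 30 differences were positive. In 13 of the 30 every knockdown library was above every control library, against 15.2% of all tested genes. The count was 0 without control replicate 1, 0 without control replicate 2 and 1 without control replicate 3, where the share of all tested genes called higher also fell, to 0.231%, 0.426% and 1.02%. It was 14 without knockdown replicate 2 (8.24% of all tested genes), 4 without D152V rescue replicate 2 (2.18%) and 9 without knockdown replicate 1 (7.26%).

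In the wild-type rescue against the knockdown, 10 of the 30 genes were lower and 0 higher, where 16.9% and 20.6% of all tested genes were called. The 10 were H1-2, H1-4, H2AC6, H2AC25, H2BC5, H2BC11, H2BC12, H2BC17, H4C3 and H4C14. The median difference was -0.65 (-0.47 without knockdown replicate 1, -0.29 with the length trend removed), against 0.03 for all tested genes. Without knockdown replicate 1 the count was 12 (19.9% of all tested genes), without wild-type rescue replicate 1 it was 3 (11.5%) and without replicate 2 it was 4 (10.4%), and with the length trend removed it was 2 (16.9%). Every knockdown library was above every wild-type rescue library in 9 of the 30, against 21.9% of all tested genes. Against control, the wild-type rescue had 0 genes called in either direction (5.04% of all tested genes were called higher and 4.58% lower). At an unadjusted limma p under 0.05, 4 were higher and 1 lower, and the share of all tested genes at that threshold was not computed. The wild-type rescue libraries were all above control in 5 genes and all below in 3 (21.4% and 23.3% of all tested genes). Without knockdown replicate 1, 3 were called higher and 1 lower, where 13.8% and 15.9% of all tested genes were called.

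The D152V rescue gave another picture. Against the knockdown, 1 gene was higher (H4C5) and 1 lower (H2AC25), where 13% and 12% of all tested genes were called, and 15 of the 30 differences were positive and 15 negative. The median was 0.01 and became 0.30, with 22 positive, when the length trend was removed, and 0.05, with 17 positive, without knockdown replicate 1. The groups did not overlap in 2 genes that were higher and 2 that were lower (22% and 20.7% of all tested genes). The count of higher genes was 4 without knockdown replicate 3 (16.5% of all tested genes) and 0 without D152V rescue replicate 3 (6.88%). That of lower genes was 2 without knockdown replicate 2 (15.4%) and 0 without any 1 of the D152V rescue libraries (5.94% to 6.71%). Against control, 6 of the 30 genes rose and 0 fell (4.61% and 4.94% of all tested genes), namely H2AC17, H2BC12, H2BC18, H2BC21, H4C5 and H4C8, with a median difference of 0.70. The count was 3 without control replicate 1 (2.84% of all tested genes), 2 without control replicate 2 (2.81%), 2 without D152V rescue replicate 3 (2.91%) and 17 without knockdown replicate 1 (11.2%), which enters the shared estimate of spread. Every D152V library was above every control library in 20 of the 30, against 18.2% of all tested genes. The knockdown and D152V comparisons share their control libraries, so their counts are not independent.

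The direct test between the rescues called 4 of the 30 genes higher with D152V and 0 lower (5.96% and 6.19% of all tested genes): H1-4, H2BC12, H2BC21 and H4C5. In 16 of the 30 every D152V library was above every wild-type rescue library (18.3% of all tested genes), and 26 differences were positive, with a median of 0.60 against -0.03 for all tested genes. Same-numbered libraries of the rescues deviated together, and with the replicate number as a block 9 genes were called higher (6.93% of all tested genes): the 4 named and H2AC11 (0.71, limma adjusted p = 0.0216), H2AC13 (1.25, 0.0248), H2BC4 (1.08, 0.0083), H2BC13 (0.90, 0.0123) and H2BC18 (0.60, 0.0494). Without knockdown replicate 1 the count was 15 (13.6% of all tested genes). The part of the lower MYB mRNA in the D152V rescue in these differences was not tested.

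Several settings ended calls that involve the knockdown. Removing the trend on transcript length ended 13 of the 29 calls in the 6 comparisons. For knockdown against control these were H2AC25 (limma adjusted p = 0.0805), H2BC12 (0.116), H2BC18 (0.0984) and H3C12 (0.0784). For the wild-type rescue against knockdown they were H1-4 (0.339), H2AC6 (0.194), H2AC25 (0.0519), H2BC11 (0.140), H2BC12 (0.0821), H2BC17 (0.372), H4C3 (0.111) and H4C14 (0.0861), and for D152V against knockdown H2AC25 (0.189). Fitting only the 6 libraries compared ended 17 calls, namely all 7 of knockdown against control, those of the wild-type rescue against knockdown other than H1-2 and H1-4, and both of D152V against knockdown. Testing without the level filter ended 10, namely H2BC12, H2BC18, H3C12 and H4C8 in knockdown against control, H2BC11, H2BC17, H4C3 and H4C14 in the wild-type rescue against knockdown, H2AC25 in D152V against knockdown (0.0508) and H4C8 in D152V against control (0.0593).

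**Figure D3:**
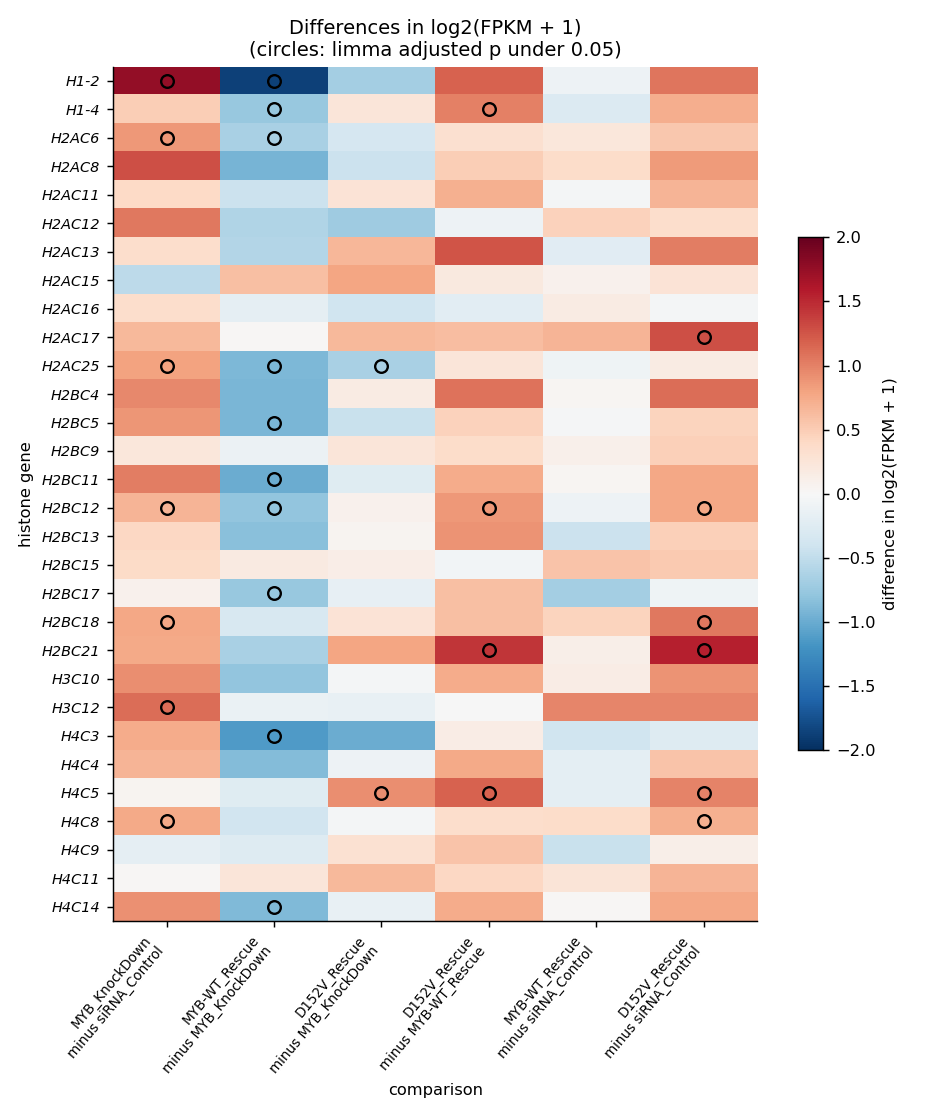
Difference in log2(FPKM + 1) of the 30 tested histone genes (rows, by type) in 6 comparisons (columns), with red for higher and blue for lower and circles for an adjusted p under 0.05. H1-2 has the largest knockdown difference (1.76), which without knockdown replicate 1 is 1.23 and below that of H2BC4 (1.35), H2BC21 has the largest difference of D152V from control (1.55), and no gene is called in the wild-type rescue against control.

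H1-2, a linker histone gene, was at 101, 92.6 and 141 FPKM in control, 768, 213 and 316 in knockdown, 81.1, 108 and 121 in the wild-type rescue, and 175, 212 and 339.9 in the D152V rescue. All 3 knockdown libraries were above all control and wild-type rescue libraries, with replicate 1 more than any other. Its mean was 3.87-fold higher in knockdown than in control (log2 difference 1.76, SE 0.41, limma adjusted p = 0.0240), a call lost without any 1 of the controls (adjusted p 0.0510 to 0.0951). Without knockdown replicate 1 the mean was 2.37-fold higher (log2 difference 1.23, limma adjusted p = 0.0116). The wild-type rescue differed from the knockdown by -1.86 (adjusted p = 0.0052), and this call held in all other settings. D152V libraries were also all above control, at 1.08 (limma adjusted p = 0.135), and above the wild-type rescue, at 1.18 (adjusted p = 0.0866, and 0.0939 with the replicate block), and neither passed.

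H1-4, another somatic linker histone gene, was much lower, with 1.93, 1.81 and 2.96 FPKM in control, 3.38, 3.01 and 4.12 in knockdown, 1.67, 1.53 and 1.75 in the wild-type rescue, and 2.79, 4.32 and 6.43 in the D152V rescue. The wild-type rescue libraries were the lowest of all 12. Its mean with D152V was 2.74-fold that with wild-type MYB (log2 difference 1.01, SE 0.23, limma adjusted p = 0.0133; 0.0538 without wild-type rescue replicate 2). The wild-type rescue was below the knockdown by a log2 difference of -0.76 (adjusted p = 0.0230), which was lost without knockdown replicate 3 or wild-type rescue replicate 1 or 2 (0.0568 to 0.0720). H1-5 (0.138 to 0.958 FPKM), H1-3 (0 to 0.770) and H1-6 (0 to 0.866), the last a testis linker histone gene, were too low to test.

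For H2A, the most abundant gene H2AC6 (chr6:26124172-26124690) had 56.7, 51.3 and 64.6 FPKM in control, 138, 82.2 and 103 in knockdown, 58.7, 70.5 and 72.5 in the wild-type rescue, and 73.8, 77.2 and 103 in the D152V rescue. Knockdown libraries did not overlap control or the wild-type rescue. The knockdown difference was 0.87 (SE 0.19, limma adjusted p = 0.0221), lost without control replicate 1 or 2 (0.0886 and 0.0914), and the wild-type rescue fell from the knockdown by 0.65 on the log2 scale (adjusted p = 0.0230), lost without wild-type rescue replicate 1 or 2 (0.0523 to 0.0838).

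H2AC25, an H2A gene on chromosome 1, had 4.64, 4.28 and 5.40 FPKM in control, 10.3, 7.79 and 9.31 in knockdown, 3.02, 5.83 and 4.71 in the wild-type rescue, and 4.93, 5.87 and 5.47 in the D152V rescue. Both rescues lay entirely below the knockdown and overlapped control. It was called higher in knockdown (0.81, SE 0.19, limma adjusted p = 0.0245; 0.0526 to 0.0991 when any 1 control was left out), lower in the wild-type rescue than in knockdown (-0.90, adjusted p = 0.0043) and lower in the D152V rescue than in knockdown (-0.65, adjusted p = 0.0290; 0.0633 to 0.0921 without any 1 D152V library).

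H2AC17 was called in the D152V rescue against control alone. Its libraries had 1.92, 1.15 and 3.31 FPKM in control, 2.49, 3.37 and 5.82 in knockdown, 3.42, 4.81 and 3.31 in the wild-type rescue, and 4.81, 6.69 and 7.83 with D152V. D152V libraries were above all controls and overlapped the wild-type rescue (difference from control 1.29, SE 0.29, limma adjusted p = 0.0177), and the call was lost without control replicate 1 or 2 or D152V replicate 2 or 3 (0.0638 to 0.0847). H2AC13, the second most abundant H2A gene, had 12.6, 14.6 and 19.0 FPKM in control, 7.64, 24.5 and 38.8 in knockdown, 10.9, 12.6 and 15.1 in the wild-type rescue, and 22.6, 29.3 and 48.3 with D152V. Its knockdown replicate 1 was the lowest of the 12 libraries, the reverse of H1-2, and its D152V libraries were above all of the wild-type rescue (1.25, adjusted p = 0.106). The other 5 tested H2A genes (H2AC8, H2AC11, H2AC12, H2AC15 and H2AC16) were called in none of the 6 comparisons.

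**Figure D4:**
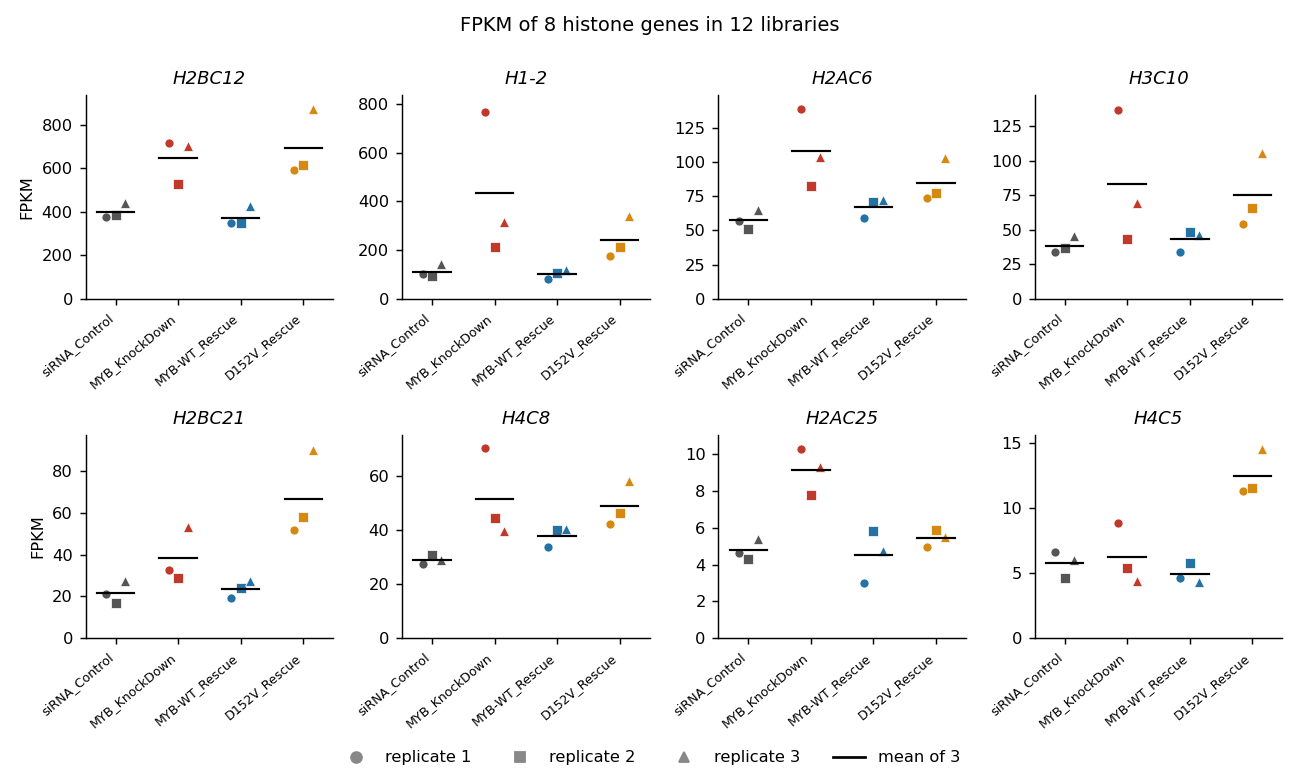
FPKM of 8 histone genes in each library (points, with a marker shape for each replicate number) and the mean of 3 (horizontal lines) in the 4 groups, on linear axes from 0. H2BC21 and H4C5 are highest with D152V, H2AC25 is highest in knockdown, and knockdown replicate 1 is the highest library for H1-2, H2AC6, H2AC25, H3C10 and H4C8.

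Among H2B genes, H2BC12 had 375, 385 and 443 FPKM in control, 718, 528 and 705 in knockdown, 349.6, 349 and 425 in the wild-type rescue, and 592, 615 and 874 in the D152V rescue. The groups split into a low pair, control and the wild-type rescue, and a high pair, knockdown and D152V, with no overlap between them. Its mean with D152V was 1.85-fold that with wild-type MYB (log2 difference 0.87, SE 0.18, limma adjusted p = 0.0094), and this call held in all other settings. The rise on knockdown was 0.69 (adjusted p = 0.0379). That call was lost without any 1 control, knockdown replicate 3, wild-type rescue replicate 1 or 2 or D152V rescue replicate 1 or 2 (0.0513 to 0.136), and with quantile normalization it had an adjusted p of 0.428. The fall in the wild-type rescue against knockdown was -0.79 (adjusted p = 0.0076; 0.311 with quantile normalization). The rise with D152V over control was 0.77 (adjusted p = 0.0223), lost without control replicate 1 or 2 or D152V replicate 3 (0.0906 to 0.0975).

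H2BC21, at chr1:149884459-149886682, had 21.3, 16.8 and 27.4 FPKM in control, 32.9, 29.0 and 53.4 in knockdown, 19.2, 24.1 and 27.5 in the wild-type rescue, and 52.0, 58.2 and 89.97 in the D152V rescue. D152V libraries were above every control and wild-type rescue library and above knockdown replicates 1 and 2. The mean with D152V was 3.05-fold control (log2 difference 1.55, SE 0.27, limma adjusted p = 0.0039) and 2.83-fold the wild-type rescue (1.44, adjusted p = 0.0047). Both calls held in all other settings. The difference from the knockdown was 0.79 (adjusted p = 0.0518), and the knockdown differed from control by 0.76 (adjusted p = 0.0841).

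H2BC18, a low-level gene of the chromosome 1 cluster, had 1.42, 1.54 and 2.08 FPKM in control, 3.995, 2.61 and 4.27 in knockdown, 3.40, 2.23 and 2.39 in the wild-type rescue, and 3.93, 4.08 and 5.71 with D152V. All 9 libraries given the MYB siRNA were above all 3 controls. The D152V difference from control was 1.05 (SE 0.20, limma adjusted p = 0.0062), which held in all other settings that tested the gene. A setting limited to a mean FPKM of at least 5 left H2BC18 out. The knockdown difference was 0.78 (adjusted p = 0.0316), lost without any 1 control, knockdown replicate 3 or D152V replicate 2 (0.0502 to 0.124). The same order, with all 9 MYB siRNA libraries above the controls, was found in 4 of the 30 genes (H2AC8, H2BC18, H3C12 and H4C8) and in 1.3% of all tested genes. That order was looked for after the values were seen.

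The other H2B calls were all lower in the wild-type rescue than in the knockdown. H2BC5 had 70.0, 27.4 and 31.2 FPKM in knockdown and 18.7, 21.5 and 21.2 in the wild-type rescue, with no overlap (-0.91, limma adjusted p = 0.0212; 0.0525 to 0.0668 without wild-type rescue replicate 1 or 2), and without knockdown replicate 1 the difference was -0.50. H2BC11 had 56.9, 24.7 and 46.8 in knockdown and 18.0, 14.4 and 29.9 in the wild-type rescue, which overlap (-0.99, adjusted p = 0.0420). H2BC17 had 5.51, 9.47 and 13.7 in knockdown and 4.21, 5.73 and 4.84 in the wild-type rescue, which overlap too (-0.76, adjusted p = 0.0362; -0.49 without knockdown replicate 3). The last 2 calls were lost in 7 and 9 of the 12 fits that leave out 1 library (0.0541 to 0.154 and 0.05 to 0.11). H2BC4, the second most abundant H2B gene, had 21.2, 21.3 and 34.6 FPKM in control, 28.1, 49.6 and 85.9 in knockdown, 23.2, 22.7 and 32.5 in the wild-type rescue, and 50.9, 48.1 and 70.2 with D152V. Its D152V libraries were above all of control and the wild-type rescue, yet the differences (1.12 and 1.08) had adjusted p of 0.0661 and 0.0662. Without knockdown replicate 1 its knockdown difference was 1.35 (limma adjusted p = 0.0065).

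Of the 2 tested H3 genes, H3C10 was the more abundant and was called in none of the comparisons. It had 33.7, 36.7 and 45.6 FPKM in control, 137, 43.2 and 69.3 in knockdown, 34.3, 48.8 and 46.6 in the wild-type rescue, and 54.0, 65.9 and 106 with D152V. The knockdown libraries overlapped control, and the difference did not pass (0.94, SE 0.36, limma adjusted p = 0.105). H3C12 had 0.985, 0.794 and 2.02 FPKM in control, 4.46, 2.44 and 4.78 in knockdown, 2.34, 3.06 and 5.07 in the wild-type rescue, and 2.27, 4.70 and 3.35 with D152V. It was called higher in knockdown than in control (1.11, SE 0.30, adjusted p = 0.0391), a call lost without any 1 control, knockdown replicate 1 or 3, wild-type rescue replicate 2 or D152V replicate 3 (0.0509 to 0.141). The rescues differed from control by 0.98 and 0.97 (adjusted p = 0.0666 and 0.0701).

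H4 genes all encode the same protein. H4C8 (chr6:26285126-26285534), the most abundant, had 27.5, 30.8 and 28.9 FPKM in control, 70.2, 44.3 and 39.7 in knockdown, 33.6, 39.9 and 40.3 in the wild-type rescue, and 42.1, 46.3 and 58.1 with D152V. It was called higher than control in knockdown (0.76, SE 0.20, limma adjusted p = 0.0338) and with D152V (0.72, adjusted p = 0.0407). The first call was lost without any 1 control or D152V replicate 2 (0.0541 to 0.121), and the second in 9 of the 12 fits that leave out 1 library, namely any control, wild-type rescue or D152V library (0.0561 to 0.172).

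H4C5, at chr6:26204610-26205021, was high with D152V alone. It had 6.65, 4.65 and 5.98 FPKM in control, 8.87, 5.39 and 4.40 in knockdown, 4.63, 5.80 and 4.31 in the wild-type rescue, and 11.3, 11.5 and 14.5 with D152V. D152V libraries were above the other 9 libraries, which overlapped one another. The difference was 1.18 from the wild-type rescue (SE 0.22, limma adjusted p = 0.0042; held in all other settings), 0.99 from control (adjusted p = 0.0139; 0.0684 to 0.0727 without control replicate 2 or D152V replicate 3) and 0.94 from the knockdown (adjusted p = 0.0123; 0.0507 without D152V replicate 3).

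H4C14 had 6.61, 2.34 and 2.89 FPKM in knockdown and 1.47, 1.53 and 1.49 in the wild-type rescue, and was called lower in the latter (-0.89, limma adjusted p = 0.0292), a call lost without knockdown replicate 1 or any 1 wild-type rescue library (0.0508 to 0.0734), with a difference of -0.53 without knockdown replicate 1. Reads from H4C14 and its near-identical neighbour H4C15 (at most 0.126 FPKM) may not be separable. H4C3 had 2.91, 0.767 and 2.05 in knockdown and was listed at 0, 1.00 and 0 in the wild-type rescue, so its call there (-1.13, adjusted p = 0.0347) rests on values near the limit of detection and was lost in 4 of the 12 fits that leave out 1 library, those without knockdown replicate 1 or 3 or wild-type rescue replicate 1 or 3 (0.0706 to 0.112). H4C11, the second most abundant H4 gene, had 9.35, 9.12 and 9.90 FPKM in control, 5.80, 8.71 and 17.0 in knockdown, 12.6, 6.59 and 17.9 in the wild-type rescue, and 16.2, 14.1 and 16.9 with D152V, and was called in none. In total 16 of the 30 tested genes were called in at least 1 comparison and 14 in none. The share of all tested genes called in at least 1 comparison was not computed, so this count has no background. The wild-type rescue against knockdown alone called 20.6% of all tested genes higher and 16.9% lower.

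**Figure D5:**
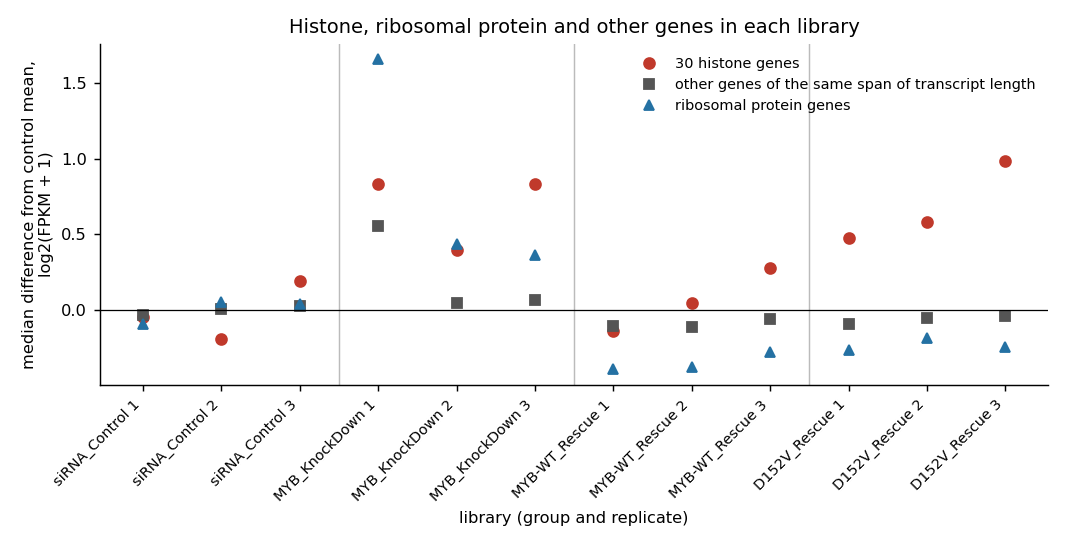
Median difference from the control mean in log2(FPKM + 1) for 30 histone genes (circles), 4925 other tested genes of the same span of transcript length (squares) and 78 ribosomal protein genes (triangles) in each of the 12 libraries. In knockdown replicate 1 all 3 sets are high, while in the D152V rescue the histone genes are at 0.48 to 0.99 and both other sets are below 0.

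Other genes within the histone genes' span of transcript length did not follow them in the D152V rescue. That span is wide: its upper end of 2224 bases is H2BC21, and the tested histone genes have a median of 486 bases. Genes close to 486 bases were not examined alone. For the histone genes these lengths, also used to remove the length trend, are of 1 annotated transcript per gene (the canonical one). For H2BC12 that length is 495 bases, where the RefSeq gene spans 8566 bases. Whether the polyadenylated mRNA has the canonical length is unknown. The histone genes' median difference from the control mean was 0.48, 0.58 and 0.99 in the 3 D152V libraries, where other genes of the same span of length were at -0.09, -0.05 and -0.04 and ribosomal protein genes at -0.26, -0.19 and -0.25. In the wild-type rescue the histone medians were -0.14, 0.05 and 0.28. In knockdown they were 0.84, 0.40 and 0.83, and the ribosomal protein genes were also high there, at 1.66, 0.44 and 0.36. The medians of knockdown against control with the length trend removed and without knockdown replicate 1 are given above. With both changes, a setting chosen after seeing the data, the median was 0.51. The parts of transcript length, of knockdown replicate 1 and of poly(A) tail status in the knockdown result were not tested.

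Of 29 genes that transcribe and process histone mRNA, all tested, 1 rose and 4 fell in knockdown against control (3.45% and 13.8%, where 3.94% and 7.38% of all tested genes were called), with a median difference of -0.03, as over all tested genes. SNRPB, a core Sm protein, rose from 91.3 FPKM ± 5.22 (SD, n = 3) to 168 ± 62.9 (0.81, limma adjusted p = 0.0288), with knockdown replicate 1 highest at 241 (difference 0.53 without it). ZNF473, a zinc finger protein of the histone pre-mRNA cleavage complex, fell from 13.1 ± 0.66 to 9.54 ± 1.05, CPSF2, a cleavage factor subunit, from 45.5 ± 2.93 to 34.9 ± 1.53, CRAMP1 from 8.27 ± 1.02 to 4.26 ± 1.94 (knockdown replicate 1 lowest at 2.02, difference -0.53 without it), and GON4L from 18.8 ± 0.93 to 11.2 ± 2.26. In the wild-type rescue against knockdown 9 were higher, including CPSF2, ZNF473, CRAMP1 and GON4L, and 4 lower (SNRPB, SNRPE, MBLAC1 and CCNE2), or 31% and 13.8% against 20.6% and 16.9% of all tested genes. In the D152V rescue against knockdown 3 were higher (CSTF2T, CRAMP1 and GON4L) and 3 lower (SNRPB, SNRPE and MBLAC1), or 10.3% each against 13% and 12% of all tested genes. Between the rescues 1 was lower with D152V (CPSF2, -0.42, limma adjusted p = 0.0283), or 3.45% against 6.19% of all tested genes. Against control 1 was called, ERI1, higher in the wild-type rescue (3.45% against 5.04%).

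NPAT, the coactivator of histone gene transcription, was at 10.7 ± 1.36 FPKM (SD, n = 3) in control, 7.14 ± 2.80 in knockdown, 12.8 ± 0.64 in the wild-type rescue and 11.2 ± 0.06 in the D152V rescue, with knockdown replicate 1 lowest at 3.905, and passed the test in the wild-type rescue against knockdown alone (0.83, limma adjusted p = 0.0158; 0.49 without knockdown replicate 1). SLBP, the stem-loop binding protein, was at 97.1 ± 3.21, 132 ± 64.3, 95.6 ± 9.77 and 83.7 ± 3.59 in the same order and was called in none of the 6. Its knockdown mean rests on replicate 1 at 206 FPKM, against 95.1 and 95.02 in the others.

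Of 27 tested histone chaperone genes of 28 listed, 0 rose and 2 fell on knockdown (UBN1, of the HIRA complex, and HJURP, the CENPA chaperone), with UBN1 at 8.27 FPKM in knockdown replicate 1 against 17.9 and 18.6 in the others (difference -0.82, and -0.47 without it). The 2 that fell are 7.41% of the list, against 7.38% of all tested genes. Of the chaperones 5 were higher in the wild-type rescue than in knockdown (UBN1, ATRX, HJURP, SSRP1 and SUPT6H) and 1 lower (ASF1B), or 18.5% and 3.7% against 20.6% and 16.9% of all tested genes. In the D152V rescue against knockdown 3 were higher (ATRX, HJURP and SUPT6H) and 1 lower (ASF1B), or 11.1% and 3.7% against 13% and 12%. Between the rescues limma called 0, against 5.96% of all tested genes higher and 6.19% lower. Against control, ASF1B was lower in the wild-type rescue and CDAN1 in the D152V rescue (3.7% each, against 4.58% and 4.94%). Of 40 genes active in S phase, 2 rose (RPA3 and TK1) and 1 fell (UNG) on knockdown, and RPA3 was at 94.9 FPKM in knockdown replicate 1 against 36.8 and 38.03 in the others (difference 1.19, and 0.75 without it). These are 5% and 2.5% of the list, against 3.94% and 7.38% of all tested genes. Of the S phase genes 2 were higher in the wild-type rescue than in knockdown (MCM4 and DTL) and 12 lower, or 5% and 30% against 20.6% and 16.9% of all tested genes. Against control 4 were lower in the wild-type rescue (MCM3, TK1, E2F2 and FEN1) and 5 in the D152V rescue (CDC6, GINS3, FEN1, RPA2 and UNG), with 0 higher in either. The lower genes are 10% and 12.5% of the list, against 4.58% and 4.94% of all tested genes. Of all tested genes, 5.04% and 4.61% were called higher. TK1, the thymidine kinase of S phase, was at 56.6 ± 3.83 FPKM (SD, n = 3), 89.5 ± 24.9, 27.7 ± 1.40 and 50.05 ± 2.64 in control, knockdown, wild-type and D152V rescue, and was higher with D152V than with wild-type MYB (0.83, adjusted p = 0.0058). E2F2, a transcription factor of the cell cycle, was also higher there (0.90, limma adjusted p = 0.01002), and CDC6, which licenses replication origins, was lower (-0.46, adjusted p = 0.0249). These were all the S phase genes called between the rescues, 2 higher and 1 lower with D152V. They are 5% and 2.5% of the list, against 5.96% and 6.19% of all tested genes. The part of S phase content in the histone differences was not tested.

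Replacement and other variant histones, most of which are made also outside S phase from polyadenylated mRNAs, had 8 tested genes of 25 listed (21 with a row). In knockdown against control 1 of the 8 rose (12.5%, against 3.94% of all tested genes), H2AZ1, from 332 ± 43.0 FPKM (SD, n = 3) to 500.2 ± 63.6 (0.59, limma adjusted p = 0.0425). Against the knockdown, 3 genes were lower in the wild-type rescue (H1-10, H2AZ1 and H3-3B) and 4 in the D152V rescue (H2AZ1, H2AZ2, H3-3A and H3-3B), or 37.5% and 50% against 16.9% and 12% of all tested genes, with H2AZ1 at -1.12 and -0.71 (limma adjusted p = 0.00066 and 0.0117). H3-3A was at 478, 746, 505 and 484 FPKM in control, knockdown, wild-type and D152V rescue, H3-3B at 327, 483, 279 and 311 (D152V against knockdown -0.58 and -0.59, and -0.32 and -0.34 without knockdown replicate 1), and H2AX at 76.9, 99.8, 79.9 and 77.1. Between the rescues 1 of the 8 was called higher with D152V (12.5%, against 5.96% of all tested genes). It was the linker histone H1-10, at 17.5 ± 6.09 with wild-type MYB and 33.1 ± 3.74 with D152V (0.93, limma adjusted p = 0.0134), while control and knockdown were at 31.4 ± 2.74 and 33.4 ± 5.06.

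RefSeq promoters (GRCh38.p14, 250 bases before to 50 after the start) were matched for 39 of the 42 genes and searched on both strands. CCAAT, the NF-Y motif, was in 33 of them, in all 32 of the H1, H2A, H2B and H3 genes and 1 of 7 H4 genes, and in 35.7% of all 27305 promoters. ATTTGCAT, the octamer bound by POU2F1, was in 7 of 10 H2A and 9 of 13 H2B promoters and none of the others, against 1.80% of all promoters. TATAAA was in 24 of 39, against 11.95%. AACNG, the core of the MYB motif, was in 34 of 39 (87.2%), against 77.1% of all promoters, and 1 pair of matches of different motifs overlapped. In 7 pairs of these genes the windows overlap by 253 to 293 bases, so the same match can be counted for both genes. The promoters of the 3 genes with the most stable differences between the rescues, and of H1-2, are shown for their contrast in these motifs: the 250 bases before the start, on the gene's strand, with capitals for CCAAT, ATTTGCAT and TATAAA in either direction. H2BC12 is at chr6:27146859-27147108 (minus strand), H2BC21 at chr1:149886683-149886932 (minus), H1-2 at chr6:26056471-26056720 (minus) and H4C5 at chr6:26204360-26204609 (plus).
H2BC12: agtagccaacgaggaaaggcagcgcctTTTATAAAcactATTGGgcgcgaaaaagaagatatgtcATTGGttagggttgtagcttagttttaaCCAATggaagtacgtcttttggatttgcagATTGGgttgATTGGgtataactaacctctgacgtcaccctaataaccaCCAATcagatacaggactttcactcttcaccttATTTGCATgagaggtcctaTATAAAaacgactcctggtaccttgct
H2BC21: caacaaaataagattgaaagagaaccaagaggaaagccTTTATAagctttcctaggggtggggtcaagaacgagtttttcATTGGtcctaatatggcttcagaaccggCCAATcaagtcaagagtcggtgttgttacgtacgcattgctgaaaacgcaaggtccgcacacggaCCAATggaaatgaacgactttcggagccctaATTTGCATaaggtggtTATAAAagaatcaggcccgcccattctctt
H1-2: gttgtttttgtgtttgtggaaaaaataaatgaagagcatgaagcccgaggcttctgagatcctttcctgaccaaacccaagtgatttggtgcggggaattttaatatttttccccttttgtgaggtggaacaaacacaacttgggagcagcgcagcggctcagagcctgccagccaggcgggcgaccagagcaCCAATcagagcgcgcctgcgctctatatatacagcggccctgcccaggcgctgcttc
H4C5: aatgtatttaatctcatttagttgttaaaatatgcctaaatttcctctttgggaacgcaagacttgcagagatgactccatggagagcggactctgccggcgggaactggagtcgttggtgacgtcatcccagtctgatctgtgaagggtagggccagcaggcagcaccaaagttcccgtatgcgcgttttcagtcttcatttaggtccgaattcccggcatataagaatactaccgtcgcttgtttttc
H2BC12 and H2BC21, an abundant and a moderate H2B gene that were both higher with D152V, share the octamer, CCAAT and TATAAA letters. H4C5, which was higher with D152V as well, has none of the 3 in its window, and H1-2 has 1 CCAAT match. A match is only a match of letters.

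Histone genes often lie head to head. In 7 pairs of an H2A and an H2B gene the promoter windows overlapped, by 253 to 293 bases, and the members of a pair could differ widely in level. H2BC21 had a mean of 37.6 FPKM and its partner H2AC20 had 0.303, and H2AC25 had 5.96 and its partner H2BC26 had 0.377. H2BC13 (1.96) and H2AC13 (21.3) and H2AC15 (3.04) and H2BC15 (13.5) differed less. In the other 3 pairs, H2BC4 with H2AC6 (40.7 and 79.3), H2BC11 with H2AC11 (29.5 and 16.1) and H2BC17 with H2AC17 (7.76 and 4.08), the levels were within 1.95-fold. An annotated long transcript was listed for H2BC21, H2AC25, H2BC26, H2BC4, H2AC6, H2BC11 and H2BC15, and for none of the other genes of these pairs.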

How the data were processed

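Gene FPKM values were deposited by the authors as 1 table of 12 libraries. Per the submitters' processing notes the tools were Cufflinks 2.2.1, Trimmomatic 0.33, bcl2fastq 2.17.1.14 and TopHat2 2.0.13 on GRCh38, and per the labels' protocols the libraries were poly(A)-selected TruSeq stranded RNA, read as 125-bp pairs. The sources used here do not state read depth or whether counting used strand, so no interval for counting error is given.

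From the FPKM values, log2(FPKM + 1) was fitted in R 4.3.3 with limma 3.58.1 (variance trend), 4 group means in 1 fit of 12 libraries, over genes with FPKM of at least 1 in at least 3 libraries, with Benjamini-Hochberg adjustment over all 13393. On simulated data for knockdown against control (13393 genes), 70 of 100 genes changed by 1 log2 unit and 96 of 100 changed by 2 were recovered, and 17 unchanged genes were called. The changed genes were drawn from those with a mean log2(FPKM + 1) above 2, with normal noise of equal spread in all groups. Recovery of lower genes, or of genes with a wider spread in knockdown, was not simulated. Genes named with values are those called in any comparison, the 2 most abundant of each histone type, all H1 genes, MYB, stated regulators and variants, and genes of the 4 lists called in knockdown against control; other list genes were named after their values were seen, and some results of these lists are not reported here. The genes and lists were chosen with earlier results of these data known. Same-numbered libraries of the rescues correlated in their deviations from the group means (0.153 to 0.233), so the replicate number was taken to pair them. The labels do not state that pairing. The block was fitted over all 12 libraries, so those of control and knockdown shared it. Transcripts and lengths came from GENCODE 44, coordinates and promoters from RefSeq GRCh38.p14. Alternatives are in the closing section.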

Additional observations from a re-analysis of the deposited data

Results flagged for a closer look

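In 4 histone genes the 2 rescues differed from each other, as tested by the limma contrast of D152V with wild-type MYB (adjusted p under 0.05). The differences in log2(FPKM + 1) were 1.005 for H1-4, 0.871 for H2BC12, 1.436 for H2BC21 and 1.184 for H4C5, each higher with D152V in 3 of 3 libraries than in any wild-type rescue library. With 3 libraries a group, no test for single outlying samples was applied.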

How the results depend on the processing

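Of 29 called differences of histone genes in the 6 comparisons, 6 were called in every other setting that tested the gene, 10 were lost in 1 to 5 settings and 13 in more. Counts called higher or lower are given where they moved by over 1.5 times. Each stands with the share of all genes tested that was called in that direction and setting, except for ranges leaving out 1 library. Across those fits the share was 0.231% to 8.24% higher for knockdown against control and 10.4% to 19.9% lower for the wild-type rescue against knockdown. For D152V it was 6.23% to 16.6% higher and 5.94% to 16.3% lower against knockdown. It was 3.82% to 13.6% higher against wild-type and 2.81% to 11.2% higher against control. For the wild-type rescue against control it was 2.73% to 13.8% higher and 2.3% to 15.9% lower. In knockdown against control (7 higher) they were 3 with no level filter (1.26%), 3 with the length trend removed (4.72%), 0 with the 6 libraries compared alone (0.0299%) and 0 at an adjusted p under 0.01 (0.321%), and 0 to 14 leaving out 1 library. In the wild-type rescue against knockdown (10 lower) they were 2 with the length trend removed (16.9%), 2 with 6 libraries (5.46%) and 3 at 0.01 (8.06%), and 3 to 12 leaving out 1. In D152V against knockdown (1 higher, 1 lower) the higher count was 3 with quantile normalization (14.6%), 3 with the length trend removed (11.8%), and 0 with 6 libraries (2.46%) and at 0.01 (4.6%), with 0 to 4 leaving out 1, and the lower count was 0 with no filter (6.13%), the length trend removed (11.8%), 6 libraries (1.64%) or 0.01 (3.83%), with 0 to 2 leaving out 1. In D152V against wild-type (4 higher) it was 13 with 6 libraries, at 10.7% (3 to 15 leaving out 1). In the wild-type rescue against control (0 and 0) it was 2 higher with the length trend removed, at 6.66%, and 3 higher and 1 lower with 6 libraries, at 12.2% and 14% (0 to 3 and 0 to 1 leaving out 1). In D152V against control (6 higher) it was 10 with quantile normalization (5.8%), 10 with the length trend removed (6.53%), 18 with 6 libraries (10.9%) and 2 at 0.01, at 2.42% (2 to 17 leaving out 1).

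With the replicate block in the model, counts were 2 higher for D152V against knockdown (14.7%), 9 higher for D152V against wild-type (6.93%), and 1 higher (5.86%) and 1 lower (5.32%) for the wild-type rescue against control. With the replicate block and the length trend removed they were 1 higher and 5 lower for the wild-type rescue against knockdown (18.4% each), 7 higher (13.4%) and 0 lower (13%) for D152V against knockdown, 8 higher for D152V against wild-type (8.96%), 1 higher for the wild-type rescue against control (7.44%) and 12 higher for D152V against control (7.88%). Apart from the rescues, same-numbered libraries did not all correlate above 0.1 (lowest -0.042, highest 0.349). The setting with the length trend removed and knockdown replicate 1 left out was chosen after seeing the data: it gave 11 higher for D152V against wild-type (14.8%), 18 for D152V against control (13.6%), 5 higher (14.6%) and 1 lower (15%) for the wild-type rescue against control, and 0 lower for D152V against knockdown (15.3%), and it turned the uncalled difference of H2AX between the wild-type rescue and knockdown from -0.21 to 0.30. The cause of these moves was not tested. Depth is unknown, and low genes such as H4C3 are limited by it.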
